A study of Mus musculus with 36 samples.

Results

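This is an account of the axon guidance ligands and receptors in RNA purified from mouse spinal cord and diaphragm. The members are all genes of the table whose symbol belongs to 1 of the classical guidance families, and they number 71 of 18845 genes. By family they are 7 class 3 semaphorins, 13 semaphorins of classes 4 to 7, 9 plexins, 2 neuropilins, 9 EphA receptors, 5 EphB receptors, 5 ephrin-A ligands, 3 ephrin-B ligands, 3 Slits, 4 Robo receptors, 4 netrins, 2 netrin-G genes and 5 netrin receptors (Unc5a to Unc5d and Dcc). The mice carried the Ribo-tag allele, in which Cre recombinase switches the ribosomal protein Rpl22 to a version with an HA tag, so that ribosomes of the recombined cells and the RNA on them can be pulled down. Libraries came from synapse-enriched diaphragm muscle of Ribo-tag mice without Cre (Cre-negative) and of ChAT-Cre;Ribo-tag mice (Cre-positive), and from spinal cord of ChAT-Cre;Ribo-tag mice. ChAT-Cre acts in cells that use the choline acetyltransferase promoter, among them motor neurons. The ages were embryonic (E15.5), postnatal (P0.5 and P10) and adult (2 months), with 3 libraries in each of 12 groups and 36 in all. All libraries hold HA-purified RNA, Cre-negative diaphragm holds what the purification recovers without a tagged ribosome, and no Cre-negative spinal cord is among the samples. The labels do not say whether the libraries of a group come from separate animals, so p-values measure only the spread between these samples.

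Guidance cues steer growing axons by attraction or repulsion. Class 3 semaphorins are secreted and bind neuropilins, which signal through plexins, while most other semaphorins are membrane proteins that bind plexins directly. Ephrins are membrane-bound ligands of Eph receptor tyrosine kinases, Slits repel through Robo receptors, and netrins attract through Dcc or repel through Unc5 receptors. In the embryo these systems sort motor axons between dorsal and ventral muscle, keep cell bodies inside the cord and guide commissural axons. Several of the same proteins act in blood vessels, myelinating glia and mature synapses.

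Stretches before a transcription start of 4 members are shown because these members moved in opposite ways in spinal cord and differ in CpG content. Epha4 and Sema4g had the largest falls from E15.5 to adult, and Sema4d and Plxnb3 the largest rises from P0.5 to P10. RefSeq windows (GRCm38.p6, the mm10 assembly) were found for 61 of the 71 members, 77 windows in all, and the 250 bases before the transcription start that each window is built on were read. A gene can have other starts: the Sema4g, Sema4d and Plxnb3 windows lie inside the span that RefSeq gives for their gene. Each sequence runs 5′ to 3′ on the gene's strand, with every CG dinucleotide in capitals.
Epha4: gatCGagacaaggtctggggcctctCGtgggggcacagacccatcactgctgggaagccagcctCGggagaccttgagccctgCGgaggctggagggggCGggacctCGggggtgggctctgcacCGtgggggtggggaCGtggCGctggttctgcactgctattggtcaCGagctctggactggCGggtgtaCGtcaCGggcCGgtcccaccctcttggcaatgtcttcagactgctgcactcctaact
Sema4g: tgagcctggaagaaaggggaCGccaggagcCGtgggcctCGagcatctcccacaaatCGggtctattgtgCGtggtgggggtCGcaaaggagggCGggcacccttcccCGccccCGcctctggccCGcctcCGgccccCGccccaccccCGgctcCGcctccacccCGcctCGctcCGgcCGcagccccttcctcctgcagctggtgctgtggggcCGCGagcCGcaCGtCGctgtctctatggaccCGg
Sema4d: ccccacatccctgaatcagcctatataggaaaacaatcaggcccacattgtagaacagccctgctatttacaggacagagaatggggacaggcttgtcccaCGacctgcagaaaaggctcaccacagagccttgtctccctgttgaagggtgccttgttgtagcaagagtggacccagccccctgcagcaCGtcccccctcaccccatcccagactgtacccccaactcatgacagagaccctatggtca
Plxnb3: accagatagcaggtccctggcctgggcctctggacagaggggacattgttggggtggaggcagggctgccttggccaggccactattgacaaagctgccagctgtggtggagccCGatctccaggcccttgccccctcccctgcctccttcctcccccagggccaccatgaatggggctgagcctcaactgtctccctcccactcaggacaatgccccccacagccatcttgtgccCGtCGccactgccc
The Epha4 window (chr1:77515089-77515338, minus strand) holds 14 CG dinucleotides, and the Sema4g window (chr19:44989094-44989343, plus strand) holds 24. The Sema4d window shown, 1 of 3 listed for that gene (chr13:51748811-51749060, minus strand), holds 2, and the other 2 hold 1 and 2. The Plxnb3 window (chrX:73756853-73757102, plus strand) holds 3. The median was 15 over the 77 member windows and 12 over the 18452 windows of genes in the table. A GC box (GGGCGG on either strand, a motif that itself holds a CG) was present in 70.1% of member windows and in 48.4% of the windows of genes in the table, and a TATA box (TATAAA on either strand) in 2.6% and 8.76%. The SOX core (ACAAAG) was in 9.09% against 13.8%, and the E-box (CAGCTG) in 15.6% against 12.8%. Over the members that rose from P0.5 to P10, 10 of 11 had a window, with 2 to 27 CG dinucleotides in the richest one (median 17.5), against 2 to 46 (median 20) for the 34 with a window among the 43 that fell. Between E15.5 and adult the 5 that rose had 2 to 35 (median 4), and the 44 with a window among the 53 that fell had 2 to 46 (median 18). The windows were chosen after the values were seen, and a match of letters does not show that a factor binds.

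Depth was 86 to 107 M reads (M, 1000000) for Cre-positive diaphragm, and 68.2 to 93.7 M for its Cre-negative counterpart. Spinal cord libraries had 63.7 to 71.8 M. Still, more genes of the table had no read in diaphragm. They were 15.4% to 33.6% in Cre-positive and 23% to 46.2% in Cre-negative diaphragm libraries, against 8.3% to 12.9% in spinal cord. Levels are in CPM (reads per 1000000 of a library), which is not per transcript length, so levels are compared between samples and not between genes, and 3 reads are at most 0.0471 CPM. The 6 motor neuron markers (Chat, Slc18a3, Slc5a7, Isl1, Mnx1, Prph) summed to 1390 to 2230 CPM in spinal cord libraries, all present, and to 0 to 70.6 CPM in diaphragm. There Mnx1 was at 0 in every library, and Chat in every Cre-negative library and in the 3 Cre-positive libraries of P0.5. The 6 skeletal muscle markers summed to 13000 to 71600 CPM in diaphragm. In each group every library was fitted as a sum of the other 2 with positive weights, and the one closest to its sum was picked. Its weights added up to 1, but all libraries have the same total in CPM. The reads of the picked library lay 2.18 to 11 counting SDs (root mean square over genes) from that sum. Of its genes 46.3% to 85.7% lay between the other 2 libraries. This intermediate library was replicate 3 in all 4 spinal cord groups and in 5 of 8 diaphragm groups. In the other 3 it was replicate 2 of Cre-negative E15.5, replicate 1 of Cre-positive P0.5 and replicate 1 of Cre-negative adult. Counts without these 12 libraries are given beside the main ones. In bulk RNA, fewer cells of a type and less of a transcript per cell cannot be told apart.

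Guidance genes were lower in adult than in E15.5 spinal cord. Of the 65 members that passed the filter (1 CPM or more in at least 3 spinal cord libraries), 53 fell, 5 rose and 7 did not pass the test (limma on log2(CPM + 1), adjusted p under 0.05), with 84.4% of the 13373 genes tested called, 58.1% lower. The median log2 difference was -1.47 over the members and -0.38 over all genes. Scaling by the RLE method, which equalises the median gene between libraries, moved the median of all genes to 0.02 and gave 48 members lower and 12 higher. Without the intermediate libraries 48 of 61 members tested were lower and 4 higher. The 6 members under the filter were Epha1, Epha2, Ntn4, Ntn5, Robo3 and Sema3g. Among the 71, the mean was highest at E15.5 for 43, at P0.5 for 19, at P10 for 7 and in the adult for 2, and for 36 it was lower at each later age than at the one before. Marker sums of other cell types moved in the same libraries. From E15.5 to adult the mean went from 273 to 18.3 CPM for fibroblast markers, from 685 to 2.98 for skeletal muscle and from 59.2 to 11.4 for endothelium. It went from 5050 to 9240 for pan-neuronal and from 603 to 1170 for sensory neuron markers, though of the latter Trpv1 was at 0 in every adult library. The mean for motor neuron markers went from 2130 to 1680 CPM. The part of these cell types in the fall of the guidance genes was not tested.

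**Figure D1:**
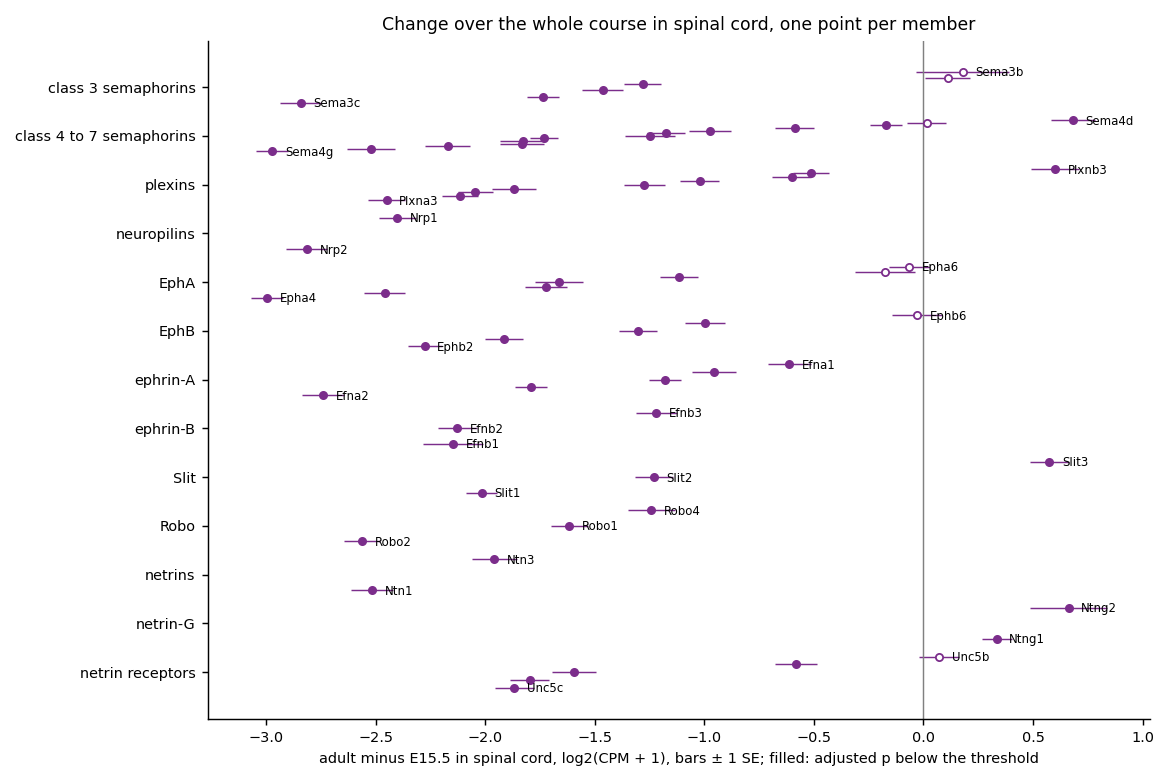
Difference between adult and E15.5 spinal cord on the log2(CPM + 1) scale (horizontal axis) for the 65 members tested, by family (vertical axis), with bars of 1 SE; filled points passed the test and open points did not. The points reach from Epha4 at -2.996 to Sema4d at 0.68, and only 5 filled points lie right of 0 (with RLE scaling, 12).

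The fall came in steps that differed between members. From E15.5 to P0.5, 36 fell and 17 rose (72.3% of all genes called, 44.4% lower). From P0.5 to P10, 43 fell and 11 rose (78.7% called, 43.5% lower), and from P10 to adult 50 fell and 2 rose (67.9% called, 44.3% lower). The member medians at these steps were -0.30, -0.63 and -0.45, against -0.13, -0.08 and -0.16 over all genes (0.00, 0.00 and 0.01 with RLE scaling). Without the intermediate libraries the counts were 29 lower and 15 higher, 40 and 9, and 35 and 1. Neighbouring steps share libraries.

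Summed over all members, the spinal cord level was 1030 ± 30.8 CPM at E15.5 (SD, n = 3, as for all levels below), 798 ± 35.2 at P0.5, 512 ± 7.28 at P10 and 328 ± 20.3 in the adult. A sum weights each gene by its share of reads, so long and abundant transcripts count most. The ratio of E15.5 to adult was 3.13 (2.46 with RLE scaling) for all members together, 8.67 for netrins, 6.28 for neuropilins, 5.4 for Robo receptors, 4.19 for class 3 semaphorins and 4.16 for EphA receptors. It was 2.2 for EphB receptors and 0.754 for netrin-G genes, the only one of the 13 families whose sum was higher in the adult (with RLE scaling too). The families also differed in timing. EphA receptors went from 115 ± 3.79 to 58.5 ± 3.38 CPM between E15.5 and P0.5, and Robo receptors from 41.5 ± 1.44 to 20.7 ± 1.01. Plexins had 77.1 ± 1.89 at E15.5 and 80.8 ± 6.96 at P0.5, then 42.5 ± 0.262 at P10. Netrins had 16.7 ± 1.02 and 17 ± 0.54 CPM at E15.5 and P0.5 and 5.46 ± 0.521 at P10. Semaphorins of classes 4 to 7 had 175 ± 2.39 at E15.5, 193 ± 11.1 at P0.5, 130 ± 2.34 at P10 and 70.8 ± 4.58 in the adult.

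**Figure D2:**
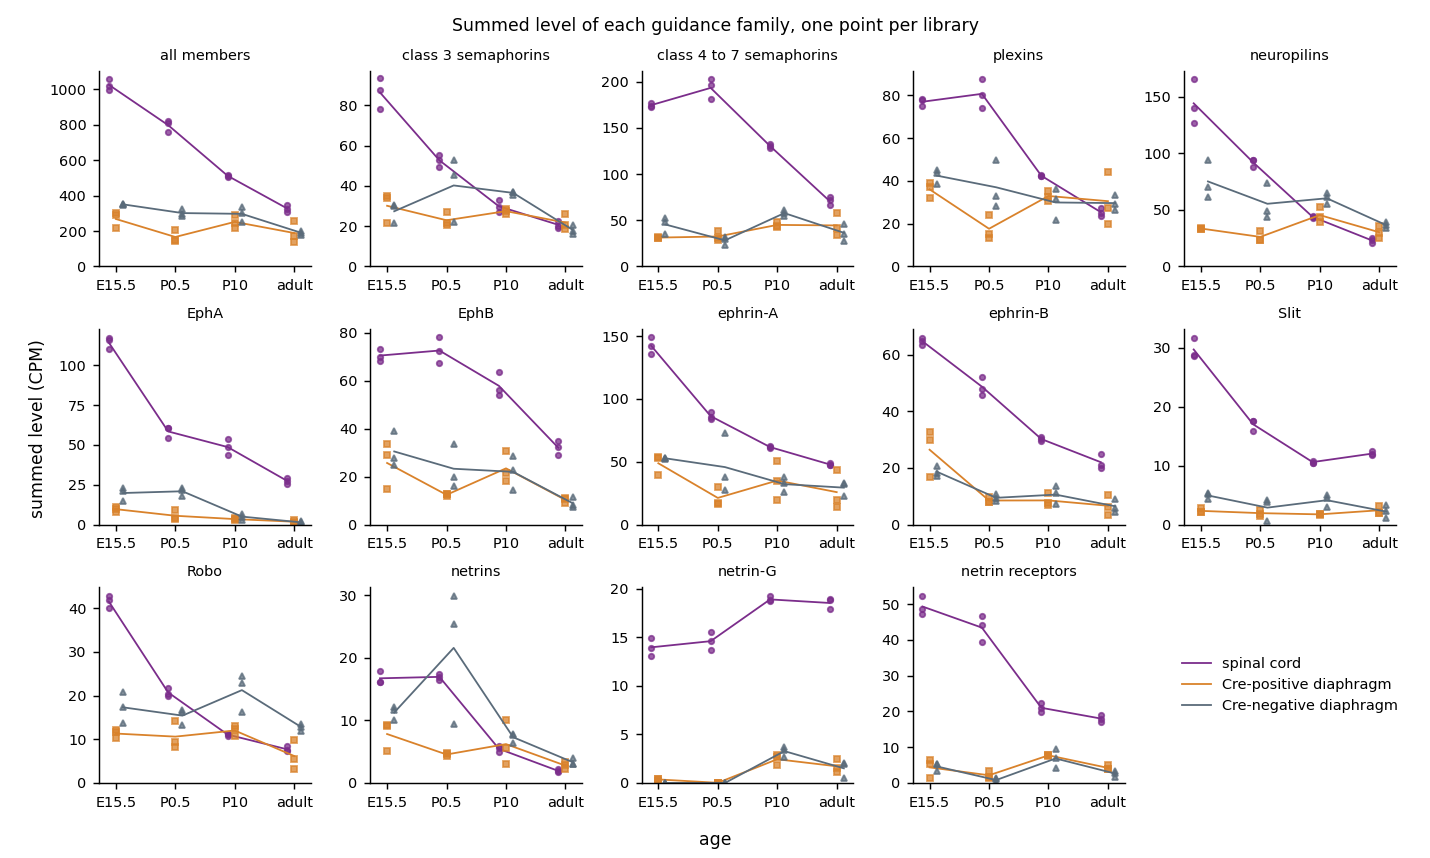
Summed level of each family in CPM (vertical axes, each from 0) by age (horizontal axes), with 1 point per library and lines through the group means; circles are spinal cord, squares Cre-positive diaphragm and triangles Cre-negative diaphragm. The sum of all members fell from 1030 to 328 CPM in spinal cord, and stayed between 166 and 351 CPM in the diaphragm groups' means.

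Among the receptors, Epha4 had the largest fall. Epha4 directs limb motor axons dorsally and keeps corticospinal axons from crossing the midline. Its spinal cord levels were 42.9, 48.7 and 44.8 CPM at E15.5, 17.5, 16.5 and 18.6 at P0.5, 7.82, 8.62 and 7.62 at P10, then 4.87, 4.87 and 4.72 in the adult. The ranges of the 4 ages did not overlap, and the log2 level fell by 2.996 ± 0.073 (SE, adjusted p = 8.0e-15) from E15.5 to adult. Of the 7 EphA genes tested, 5 fell over the whole course, and Epha6 (3.12 to 2.94 CPM) and Epha10 (5.31 to 4.53 CPM) did not pass the test. Epha3, which is used by axial motor neurons, had 8.14 ± 0.293 CPM at E15.5 and 0.662 ± 0.0929 in the adult. Epha7 went from 8.26 ± 0.885 to 1.94 ± 0.428 CPM. Epha5 took another path, with 42.4 ± 2.3 CPM at E15.5, 19.8 ± 1.11 at P0.5, 25.7 ± 3.74 at P10 and 12.2 ± 1.25 in the adult, and its rise between P0.5 and P10 was called (log2 difference 0.35 ± 0.096, adjusted p = 0.0034).

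The summed EphB level was 70.5 ± 2.64 CPM at E15.5 and 72.5 ± 5.42 at P0.5. Ephb1, a receptor of limb motor neurons that project ventrally, had 34.1, 38.6 and 33.4 CPM at E15.5 and 45.8, 39 and 42.1 at P0.5, a rise (0.25 ± 0.087, adjusted p = 0.018) that was not called without the intermediate libraries (adjusted p = 0.2). It then had 33.9, 30.4 and 31.8 CPM at P10, then 15.1, 12.1 and 14.1 in the adult, lower than at each younger age. Ephb2 fell from 8.52 ± 0.615 to 0.962 ± 0.109 CPM over the course and Ephb3 from 9.6 ± 0.528 to 1.82 ± 0.261. Ephb6, whose kinase domain lacks activity, had 15.7 ± 1.37 CPM at E15.5 and 15.3 ± 1.42 in the adult and did not pass the test at any step.

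All 8 ephrin genes fell from E15.5 to adult. Efna2 fell most among them, from 20.9, 23.3 and 21.9 CPM at E15.5 to 13, 12.8 and 14.4 at P0.5, 7.62, 5.92 and 7.6 at P10, then 2.72, 2.14 and 2.49 in the adult, with no overlap between ages (log2 difference -2.74 ± 0.095, adjusted p = 3.6e-13). Efna3 kept more of its level, with 71 ± 8.03 CPM at E15.5, 42.4 ± 0.815 at P0.5, then 32.6 ± 0.422 at P10 and 30.7 ± 1.2 in the adult, and its last step did not pass the test (adjusted p = 0.3). Efna5, which repels axons that carry EphA receptors, went from 43.4 ± 1.2 to 11.9 ± 1.01 CPM. In the ephrin-B group Efnb1 and Efnb2 fell by 1.77 ± 0.136 and 1.15 ± 0.089 on the log2 scale between E15.5 and P0.5. Efnb3, a midline repellent for axons with Epha4, had 46.2 ± 3.52 and 42.8 ± 3.3 CPM at these ages, which did not pass the test, and 19.4 ± 3.01 in the adult.

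Of the secreted semaphorins and their neuropilin receptors, 4 of the 6 class 3 semaphorins tested and both neuropilins were lower in the adult. Sema3c, the one with the largest fall, had 40.8, 54.2 and 47.5 CPM at E15.5, 23.4, 22 and 24.9 at P0.5, 7.54, 8.84 and 7.8 at P10, then 6.05, 5.44 and 5.68 in the adult. Its ages did not overlap, and the log2 difference over the course was -2.84 ± 0.094 (adjusted p = 2.0e-13). Sema3a, the classical growth cone collapsing factor, went from 25.8 ± 0.813 to 7.05 ± 0.441 CPM, and Sema3e, a ligand of Plxnd1, from 3.96 ± 0.128 to 1.04 ± 0.129. Sema3d (2.03 to 2.29 CPM) and Sema3b (3.1 to 3.65 CPM) did not pass the test over the course. The neuropilins were timed differently. Nrp1, the Sema3a receptor, had 80.6, 102 and 87.5 CPM at E15.5, 41.2, 39.7 and 42.9 at P0.5, 28.2, 28.2 and 29.3 at P10, then 17.7, 14.6 and 16.3 in the adult. Nrp2, the Sema3c and Sema3f receptor, had 46.1, 63.6 and 52.4 CPM at E15.5 and 52.9, 48.2 and 51.4 at P0.5, which overlapped, and then 15, 15.7 and 15.2 at P10, then 7.12, 6.22 and 6.95 in the adult. Nrp1 thus had its largest step between E15.5 and P0.5 (log2 difference -1.10 ± 0.085), and Nrp2 between P0.5 and P10 (-1.67 ± 0.093).

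Of the 13 semaphorins of classes 4 to 7, 11 fell from E15.5 to adult, Sema4d rose and Sema7a did not pass the test. Between E15.5 and P0.5, however, 6 of them rose and 3 fell. Sema4g rose from 20.8, 21.6 and 21 CPM to 27.3, 28 and 28.9 in this step, and then had 6.6, 6.68 and 6.83 at P10, then 2.07, 1.55 and 1.85 in the adult, an overall fall of 2.97 ± 0.073 on the log2 scale. Sema5b, which repels sensory axons, had 7.5 ± 1.15, 12.9 ± 1.31, 2.43 ± 0.0772 and 0.882 ± 0.155 CPM at the 4 ages. Sema5a was at 7.37 ± 0.463, 6.16 ± 0.661 and 6.1 ± 0.347 CPM up to P10 and at 1.36 ± 0.306 in the adult. Sema6a, which acts at exit points of motor axons, had 16.8 ± 0.282 CPM at E15.5, 23.5 ± 3.83 at P0.5 and 10.9 ± 0.194 in the adult, and its fall over the whole course was not called with RLE scaling (-0.15, adjusted p = 0.11).

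The mean of 7 members was highest at P10: Epha6, Ntng1, Plxnb3, Sema3b, Sema3d, Sema4d and Sema7a. Sema4d is a plexin-B ligand made by oligodendrocytes in the nervous system. Its spinal cord levels were 8.3, 8.46 and 8.61 CPM at E15.5, 13.5, 9.87 and 11.7 at P0.5, 36, 35.5 and 37.2 at P10, then 15.3, 12.2 and 15.3 in the adult. All P10 libraries were above all others, and the step from P0.5 was 1.56 ± 0.1 on the log2 scale (adjusted p = 9.7e-10). Plxnb3, a plexin also known from oligodendrocytes, had 0.732, 0.345 and 0.469 CPM at E15.5, 1.63, 1.45 and 1.68 at P0.5, 5.59, 5.98 and 6.44 at P10, then 1.58, 1.03 and 1.27 in the adult (step to P10 1.44 ± 0.109, adjusted p = 7.2e-09). Sema7a, a membrane-anchored semaphorin that binds Plxnc1 and integrins, rose from 6.25 ± 0.411 to 10.6 ± 0.356 CPM in the same step and was at 7.18 ± 0.443 in the adult. Sema3b rose from 2.33 ± 0.281 to 5.79 ± 2.41 CPM (adjusted p = 0.0012, and 0.057 without the intermediate libraries). The 5 oligodendrocyte markers Mbp, Mog, Mag, Cnp and Mobp, all present, summed to 70.2 to 95.5 CPM at E15.5, 784 to 844 at P0.5, 12600 to 17800 at P10 and 1510 to 2660 in the adult, so they were highest in the same libraries. Their part in these rises was not tested.

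**Figure D3:**
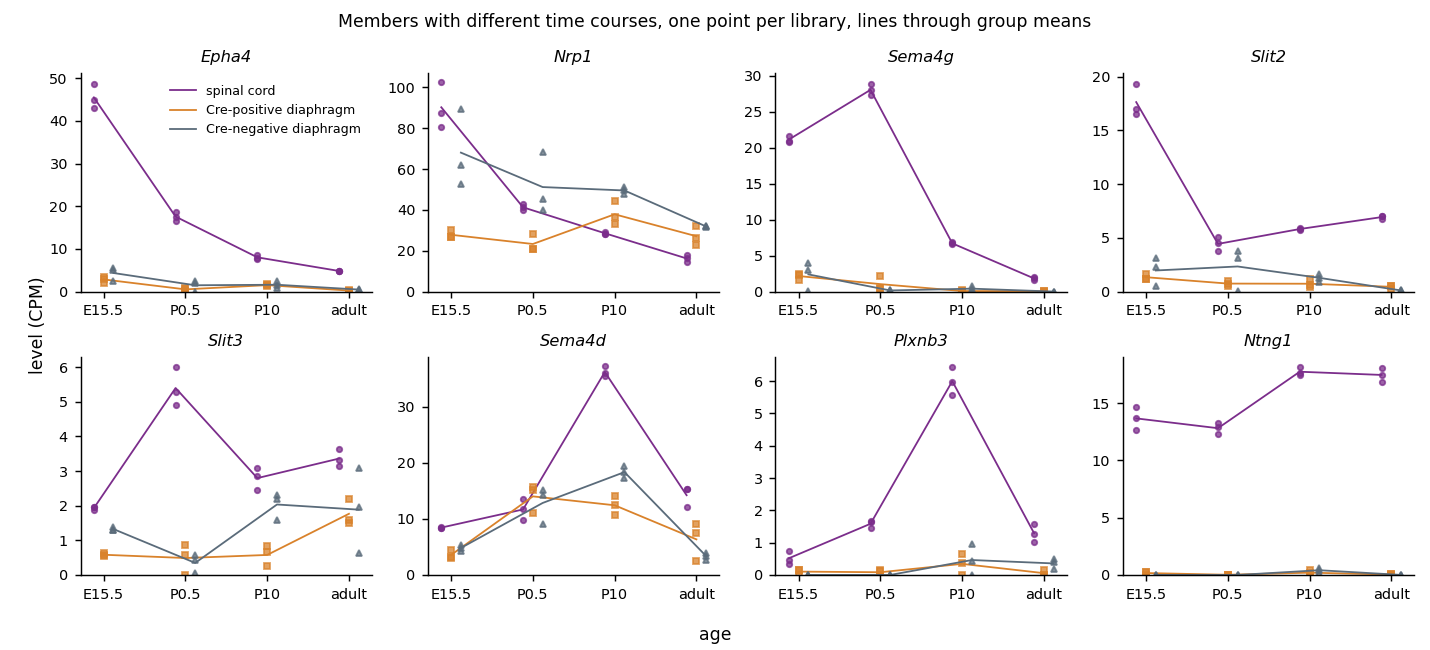
Levels of 8 members in CPM (vertical axes, each from 0) by age (horizontal axes), with 1 point per library and lines through the group means; circles are spinal cord, squares Cre-positive diaphragm and triangles Cre-negative diaphragm. In spinal cord Epha4 and Nrp1 went down from E15.5, Sema4g peaked at P0.5 at 28.1 CPM, and Sema4d and Plxnb3 peaked at P10 at 36.2 and 6 CPM.

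Of the plexins, 8 of 9 fell over the course and Plxnb3 rose. Plxna1 rose between E15.5 and P0.5, from 17.5, 16.6 and 17.3 CPM to 30.3, 24 and 26.3, and then had 6.78, 6.76 and 6.26 at P10, then 3.48, 3.55 and 3.19 in the adult. Plxna4, a partner of Nrp1, rose from 15.4 ± 0.339 to 22.2 ± 2.86 CPM and was at 9.85 ± 0.63 in the adult, a fall over the course that was not called with RLE scaling (-0.17, adjusted p = 0.059). Plxna2 and Plxna3 fell in that step instead, from 12.3 ± 0.856 to 6.94 ± 0.838 and from 12.2 ± 0.7 to 6.1 ± 0.164 CPM.

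The 3 Slits went separate ways. Slit2 had 16.5, 19.3 and 17 CPM at E15.5, 4.5, 3.76 and 5.03 at P0.5, 5.83, 5.92 and 5.7 at P10, then 7.03, 7.04 and 6.71 in the adult. Its fall of 1.78 ± 0.088 (log2) up to P0.5 was, beside that of Efnb1, the largest of the members tested at that step, and its later rises were small: 0.33 ± 0.088 to P10 (adjusted p = 0.0026) and 0.22 ± 0.088 to adult (adjusted p = 0.039, but 0.18 without the intermediate libraries and 0.058 to 0.098 without any 1 of the 6 libraries). Slit3 moved the other way up to P0.5, from 1.93 ± 0.052 CPM to 5.4 ± 0.558 (1.13 ± 0.09, adjusted p = 2.8e-08), and had 2.8 ± 0.324 at P10 and 3.36 ± 0.25 in the adult. Slit1 fell at both of the first steps, with 10.1 ± 0.265, 7.14 ± 0.121, 1.97 ± 0.154 and 1.75 ± 0.0264 CPM. The axonal receptors Robo1 and Robo2 fell at both of the first steps. Robo2 had 24.5, 24.7 and 26.1 CPM at E15.5, 11, 11.6 and 12.4 at P0.5, 5.69, 6.45 and 6.02 at P10, then 3.94, 3.1 and 3.26 in the adult, with no overlap between ages. Robo1 went from 13.8 ± 1.06 to 3.99 ± 0.389 CPM at P10 and 3.83 ± 0.123 in the adult.

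Of the netrins tested neither changed between E15.5 and P0.5, while 4 of the 5 netrin receptors fell and Unc5a rose. Ntn1, the commissural attractant, had 11.2, 9.69 and 10 CPM at E15.5, 9.21, 11 and 10.6 at P0.5, 2.69, 3.54 and 3.14 at P10, then 1.11, 0.926 and 0.883 in the adult. The first 2 ages overlapped, and the later ones did not. Dcc, its attractive receptor, had 6.48 ± 0.879, 4.28 ± 0.585, 2.65 ± 0.174 and 1.47 ± 0.0919 CPM, called lower at each step. The repulsive receptors Unc5c and Unc5d fell over the course from 15.4 ± 1.38 to 3.49 ± 0.32 and from 13.8 ± 1.08 to 3.27 ± 0.425 CPM. Unc5a was irregular, with 11.9, 10.3 and 10.8 CPM at E15.5, 19.8, 15.8 and 16.8 at P0.5, 5.42, 4.38 and 4.31 at P10, then 6.74, 7.34 and 6.97 in the adult, so that it rose again after P10 (0.50 ± 0.095, adjusted p = 2.8e-04). Unc5b did not pass the test over the course (2.59 to 2.79 CPM).

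Both netrin-G genes, which encode lipid-anchored proteins that act at synapses rather than through Dcc, had higher RNA levels in the adult than at E15.5. Ntng1 had 12.6, 14.6 and 13.7 CPM at E15.5, 13.2, 12.3 and 12.9 at P0.5, 17.4, 18.1 and 17.6 at P10, then 18.1, 16.8 and 17.5 in the adult. Both later groups lay above both earlier ones (adult against E15.5 0.33 ± 0.068, adjusted p = 2.7e-04). Ntng2 went from 0.307 ± 0.187 to 1.07 ± 0.274 CPM (0.66 ± 0.176, adjusted p = 0.003). Lrrc4c, the binding partner of Ntng1, fell from 22.2 to 10.3 CPM.

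The other genes of guidance signalling are a list of 53. Of 51 tested, 36 fell and 8 rose between E15.5 and adult spinal cord, with a median of -0.74, in the comparison where 84.4% of all genes were called, 58.1% lower, and the median of all genes was -0.38. Of the 12 other receptors and cues tested 11 fell, among them the netrin and Rgma receptor Neo1, from 17.1 to 3.35 CPM. Of the 6 adhesion co-receptors 4 fell, and of the 33 cytoplasmic effectors 21 fell and 7 rose. The 5 collapsin response mediators, cytoplasmic proteins of the semaphorin response, all fell: Crmp1 from 364 to 15.8 CPM, Dpysl4 from 41.2 to 2.26, Dpysl5 from 59.8 to 4.7, Dpysl3 from 547 to 64.1 and Dpysl2 from 1210 to 423. In contrast, the actin regulating kinase Pak1 rose from 74.5 to 166 CPM.

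In the main test most members were lower in diaphragm than in spinal cord of the same genotype. In the adult the share of members that was lower was close to that of all genes. Of 68 members tested, Cre-positive diaphragm was lower for 50 and higher for 11 at E15.5 (73.6% of 14831 genes called, 52.1% lower and 21.5% higher), and for 51 and 9 at P0.5 (75.3%, 56.9% and 18.4%). It was lower for 41 and higher for 13 at P10 (73%, 53.1% and 19.9%), and for 38 and 13 in the adult (74.8%, 55.3% and 19.5%). The member medians, from E15.5 to adult, were -1.79, -2.0, -1.06 and -0.86, against -0.58, -0.80, -0.63 and -0.72 over all genes, which RLE scaling moved to -0.11, -0.22, -0.20 and -0.23. With that scaling 32 members were lower and 20 higher in the adult. Without the intermediate libraries the counts were 48 and 7, 50 and 5, 36 and 8, and 32 and 11. The summed level of all members was 3.83 times as high in spinal cord at E15.5 and 1.73 times in the adult. In the adult the ratio of diaphragm to spinal cord was 0.577, and 0.965 with RLE scaling. The share of RNA from tagged motor axons in the diaphragm libraries was not measured.

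Members called lower in diaphragm at all 4 ages numbered 35 (51.5% of 68, beside 34.5% of all genes tested), and 6 (8.82%, beside 7.07%) were called higher at all 4: Efna1, Efnb1, Ephb4, Plxnd1, Robo4 and Sema3g. Of the named members among the 35, Sema6a (-0.2, adjusted p = 0.58), Nrp2 (-0.23, adjusted p = 0.12) and Slit3 were not called in the adult with RLE scaling. Sema6a in the adult was also not called with edgeR (0.16), with only the compared groups (0.16) or without the intermediate libraries (0.22). Its call was lost too without Cre-positive replicate 2 or 3 or any 1 spinal cord library (0.052 to 0.24). For 18 members (25.4% of 71, beside 15.4% of all 18845 genes) every spinal cord library was above every diaphragm library, Cre-negative ones included: Dcc, Efna3, Efnb3, Epha5, Epha6, Epha10, Ephb1, Ephb6, Ntng1, Plxna4, Robo1, Robo2, Sema4f, Sema6b, Sema7a, Unc5a, Unc5c and Unc5d. Efna3 had at most 1.84 CPM in a diaphragm library at E15.5 and at most 0.823 later, against 29.4 to 78.8 in spinal cord. Sema4f, a membrane semaphorin, had a Cre-positive diaphragm mean of 1.82 CPM against 51.4 in spinal cord at E15.5. Epha5 was at 0 in the 3 adult Cre-positive diaphragm libraries and at 12.2 ± 1.25 CPM in adult spinal cord. All 3 Slits, Robo1 and Robo2 were lower in diaphragm at every age, except that Slit3 in the adult was not called with RLE scaling (-0.09, adjusted p = 0.75), with a pseudocount of 0.1 (0.14), with edgeR (0.26) or without the intermediate libraries (0.1). Slit3 at E15.5 was not called with edgeR (adjusted p = 0.053). Members that never reached 1 CPM in a diaphragm library were Dcc, Epha6, Epha8, Epha10, Ntn4, Ntng1, Plxnb3 and Unc5d, and Dcc, Epha8 and Unc5d had no read in at least 18 of the 24.

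For Efna1, Ephb4, Robo4 and Plxnd1 (4 of 71, 5.63%, beside 2.23% of all genes) every diaphragm library was above every spinal cord library. Efna1, an ephrin of endothelium and epithelium, had at E15.5 35.2, 28.4 and 35.3 CPM in the Cre-positive diaphragm, and 41.3, 11.8 and 17.7 in the adult, against 5.7, 4.44 and 4.56 and 2.72, 2.54 and 3.3 in spinal cord (log2 difference 2.53 ± 0.331 and 2.50 ± 0.331, adjusted p = 1.0e-06 at both ages). Ephb4, the venous Eph receptor, had 10.5, 10.4 and 9.97 CPM in Cre-positive diaphragm at P10 against 0.428, 0.723 and 0.452. Robo4, the endothelial Robo, had 12.8, 10.2 and 12 CPM at P10 against 0.689, 1.02 and 1.1. Plxnd1, the endothelial Sema3e receptor, had 7.15, 4.37 and 5.74 CPM in the adult against 0.104, 0.0427 and 0.0579. The 6 endothelial markers (Pecam1, Cdh5, Kdr, Tie1, Esam, Cldn5), all present in every group, summed to 75.8 to 391 CPM in diaphragm libraries and to 10.8 to 61.6 CPM in spinal cord. Their part in these 4 differences was not tested.

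**Figure D4:**
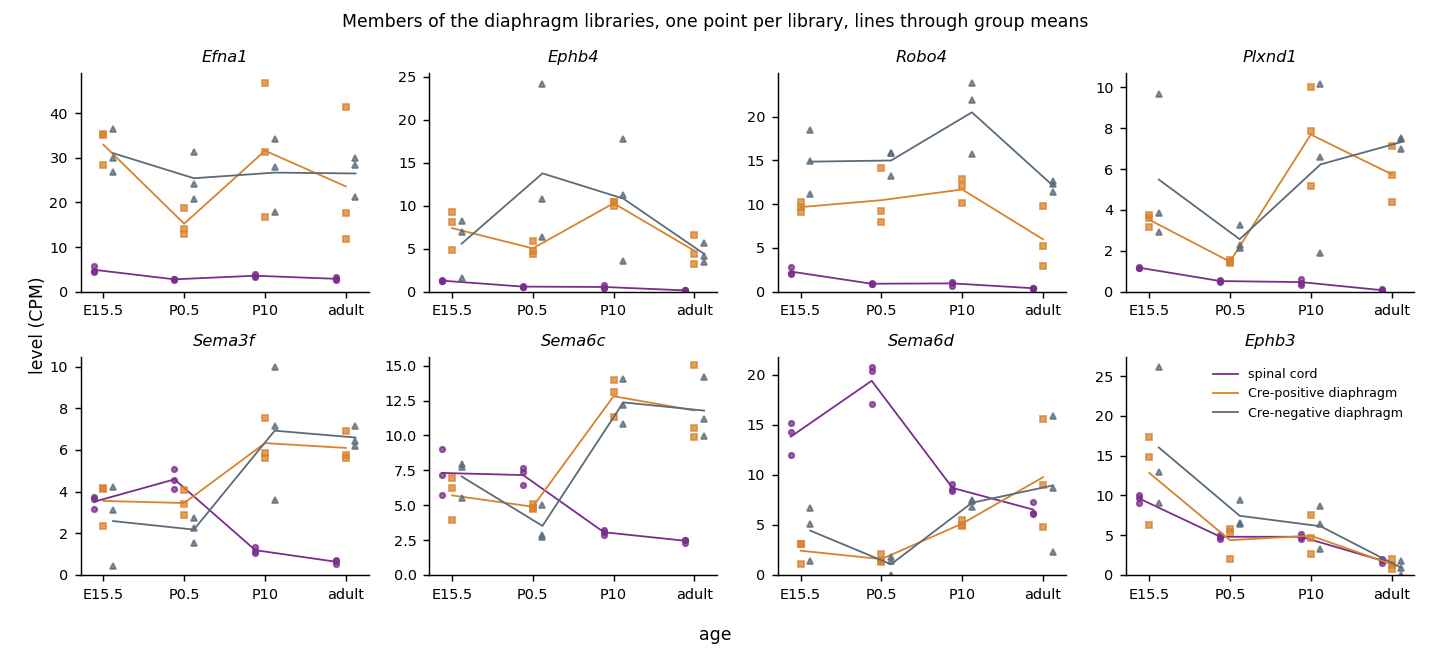
Levels of 8 members in CPM (vertical axes, each from 0) by age (horizontal axes), with 1 point per library and lines through the group means; circles are spinal cord, squares Cre-positive diaphragm and triangles Cre-negative diaphragm. Efna1, Ephb4, Robo4 and Plxnd1 lay above spinal cord in every diaphragm library, and Sema3f and Sema6c crossed between P0.5 and P10.

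The difference between the tissues shifted toward the diaphragm with age for many members on the log2(CPM + 1) scale, but not for every family sum. The change from E15.5 to adult in Cre-positive diaphragm minus that in spinal cord was positive for 35 members and negative for 4 of 68 tested (58% of all genes called, 24.5% positive and 33.5% negative), and without the intermediate libraries for 21 and 0. With edgeR on the recovered reads 21 were positive and 11 negative. For EphA receptors the summed CPM of spinal cord was 11.8 times that of Cre-positive diaphragm at E15.5, and 14.7 times in the adult. This ratio also rose for EphB receptors (2.74 to 3.11) and ephrin-B ligands (2.44 to 3.29), away from the diaphragm. In every other family it was lower in the adult. On the log2(CPM + 1) scale a gene near 0 in diaphragm has little room to fall, so the members described next had a mean of at least 5 CPM at E15.5 or in the adult in both tissues. Sema6c, a membrane semaphorin, had at E15.5 6.95, 3.96 and 6.21 CPM in the Cre-positive diaphragm, and 15, 9.85 and 10.5 in the adult, while spinal cord went from 5.74, 9.01 and 7.17 to 2.5, 2.54 and 2.32 (difference of changes 2.19 ± 0.253, adjusted p = 4.5e-07). Sema6d, a ligand of Plxna1, had 3.07, 1.13 and 3.08 CPM and then 15.6, 4.76 and 8.95 in Cre-positive diaphragm against 15.2, 12 and 14.3 and then 7.28, 6.18 and 6.14 (2.56 ± 0.394, adjusted p = 1.7e-05). Nrp1 had 26.6, 29.9 and 26.9 CPM and then 32.1, 22.9 and 26.3 in Cre-positive diaphragm, with overlapping ages, against its fall in spinal cord (difference of changes 2.35 ± 0.203, adjusted p = 8.1e-09), so that it was lower in diaphragm at E15.5 (-1.66 ± 0.143) and higher in the adult (0.70 ± 0.143). In Cre-negative diaphragm the Nrp1 change over the same ages was -1.04, beside -0.047 in Cre-positive diaphragm and -2.40 in spinal cord. Plxna2 (2.16 ± 0.3), Nrp2 (2.13 ± 0.224) and Sema3c (1.60 ± 0.41) shifted the same way. These values share libraries with both the age and the tissue comparisons.

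**Figure D5:**
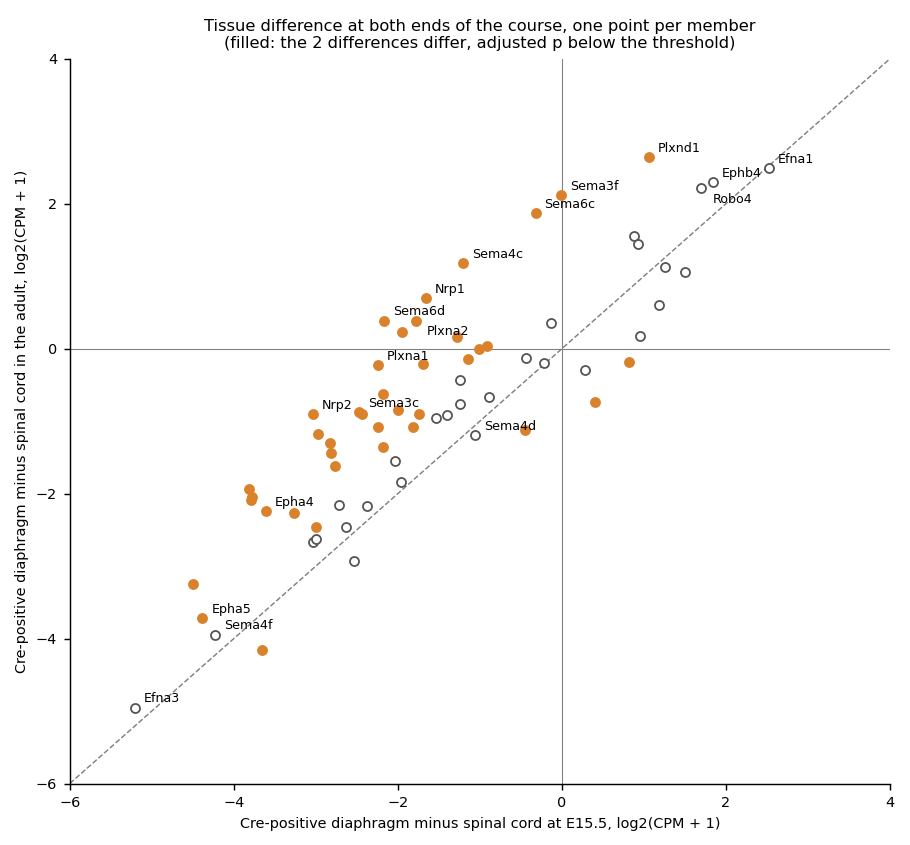
Difference between Cre-positive diaphragm and spinal cord on the log2(CPM + 1) scale at E15.5 (horizontal axis) and in the adult (vertical axis), with 1 point per member; filled points are the 39 members whose differences changed between the ages, and the dashed line marks equal differences. Of the filled points 35 lie above the line and 4 below it, and Efna3, Efna1 and Ephb4 are among the open points.

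Within the diaphragm, averaged over both genotypes, 31 members fell and 7 rose from E15.5 to adult of 58 tested (60.6% of 13853 genes called, 44.2% lower), with a median of -0.69 against -0.53 over all genes. RLE scaling gave 27 lower and 11 higher and a median of all genes of -0.20, and without the intermediate libraries 13 were lower and 1 higher. Ephb3, an EphB receptor, had 26.1, 12.9 and 9.02 CPM in Cre-negative and 17.3, 6.33 and 14.9 in Cre-positive libraries at E15.5 and at most 2.05 in the adult (-2.82 ± 0.345, adjusted p = 3.8e-07). Efnb1 fell from 16 ± 6.57 to 2.72 ± 1.36 CPM (n = 6 libraries an age) and Plxnb2 from 17.6 ± 2.74 to 4.93 ± 3.65. On the other side, Sema3f rose from 3.07 ± 1.5 to 6.34 ± 0.618 CPM and Sema6c from 6.38 ± 1.5 to 11.8 ± 2.25, and both had adjusted p = 0.088 without the intermediate libraries. The 4 erythroid markers summed to 63400 to 118000 CPM in diaphragm libraries at E15.5 and to 5030 to 9650 in the adult, and the 5 fibroblast markers to 1030 to 2380 and 172 to 411. Their part in these changes was not tested.

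The comparison of Cre-positive with Cre-negative diaphragm asks which RNA the tagged ribosomes bring in above background. Few members differed, and without the intermediate libraries limma called none (4, 5, 0 and 0 had an unadjusted p under 0.05 at the 4 ages). That fit has 2 libraries a group, and its loss of calls is not set against that of all genes here. At E15.5, 3 of 58 members tested were higher and 3 lower in Cre-positive libraries (11% of 13853 genes called, 4.88% higher and 6.11% lower). At P0.5 no member was higher and 7 were lower (27.7%, 12.1% and 15.7%), and in the adult 1 was lower (12%, 3.06% and 8.92%). At P10 limma called 0 (1.45%, 0.419% and 1.03%), with 4 at an unadjusted p under 0.05, and edgeR called 0, with 6. At E15.5 the higher ones were Sema5b (2.32 ± 1.13 CPM against 0 in all 3 Cre-negative libraries), Plxna3 (1.8 ± 0.0527 against 0.296 ± 0.262) and Ntn5 (1.66 ± 0.723 against 0.14 ± 0.0133), and Ephb1, Robo1 and Nrp1 were lower. Ephb1 had 1.65 ± 0.646 CPM against 6.09 ± 1.49 (adjusted p = 0.023, but 0.17 with a pseudocount of 0.1 and 0.32 with edgeR), and Robo1 had 0.543 ± 0.0641 against 1.6 ± 0.382 (adjusted p = 0.039, but 0.079 with RLE scaling, 0.08 with only the compared groups, 0.27 with a pseudocount of 0.1 and 0.66 with edgeR). Robo1 was also lost without any 1 Cre-positive library (0.082 to 0.12), and Ephb1 without Cre-negative replicate 1 or 2 or Cre-positive replicate 2 or 3 (0.056 to 0.097). Nrp1 had 26.6, 29.9 and 26.9 CPM against 89.6, 61.9 and 52.7 in Cre-negative libraries, with no overlap (-1.23 ± 0.229, adjusted p = 0.0017, and 0.49 without the intermediate libraries). Leaving out Cre-negative replicate 2, or Cre-positive replicate 3 instead, lowered the count at E15.5 to 3.

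At P0.5 the lower members were Ntn5, Epha2, Plxnb2, Efnb2, Nrp1, Sema3a and Efna5. Ntn5, a netrin of boundary cap cells at the motor exit points, had 0.71, 1.44 and 0.94 CPM in Cre-positive libraries and 9.46, 19.8 and 17.8 in Cre-negative ones (-2.99 ± 0.348, adjusted p = 6.0e-06, and 0.053 without the intermediate libraries). Plxnb2 had 8.06, 7.65 and 6.86 CPM against 26.4, 21.2 and 22.9 (-1.52 ± 0.363, adjusted p = 0.004, and 0.23 without them). The count became 12 without Cre-negative replicate 1, whose Sema3c was at 0.22 CPM beside 30.4 and 24.3 in the other 2. RLE scaling shifted the all-gene median from -0.01 to 0.21, and 6 members were then higher and 7 lower. The fibroblast markers summed to 1280 to 1950 CPM in Cre-positive and 2490 to 5310 in Cre-negative libraries at P0.5, and their part was not tested. In the adult Robo4 had 9.74, 2.96 and 5.24 CPM against 11.4, 12.7 and 12.3 (-1.03 ± 0.312, adjusted p = 0.034, and 0.75 without the intermediate libraries). That call was lost without any 1 of the 3 Cre-negative libraries and without Cre-positive replicate 2 or 3. RLE scaling (adjusted p = 0.068), edgeR (0.062) and only the compared groups (0.12) also ended the Robo4 call. Motor neuron markers in Cre-positive diaphragm summed to 46.8 to 66 CPM at E15.5 and to at most 7.54 at later ages. In Cre-negative diaphragm they summed to 12.3 to 70.6 CPM at E15.5 and to at most 8.76 at later ages, so the ranges of the sums overlapped. Single markers differed more. At E15.5 Chat, Slc18a3, Slc5a7 and Mnx1 were at 0 in all 3 Cre-negative libraries, and only Mnx1 in all 3 Cre-positive ones. Markers at 0 in all 3 libraries numbered, Cre-negative against Cre-positive, 4 against 2 at P0.5, 5 against 1 at P10 and 2 against 1 in the adult.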

How the data were processed

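RNA from an HA-tag purification was sequenced in 36 libraries. The authors deposited a table of 18845 genes in CPM (reads per 1000000 of the library total), and Bowtie2 2.2.5, RSEM 1.2.12 and mm10 were used, per the submitters' processing notes, without further detail. Dividing by the value of 1 read gave whole numbers (within 0.1) in all libraries, so depth is recovered, not stated. Groups follow the labels. The main test was limma 3.58.1 (trend, robust; R 4.3.3) on log2(CPM + 1). A gene entered a fit if 3 or more of its libraries reached 1 CPM, and p-values were Benjamini-Hochberg adjusted over all genes and called under 0.05, tested on simulated data. Fits held the 12 spinal cord libraries, these with 12 Cre-positive diaphragm libraries, or all 24 diaphragm libraries. Alternatives were a pseudocount of 0.1, no filter, RLE scaling, edgeR 4.0.16 on recovered reads, only the compared groups, a replicate block, and libraries left out. Named genes are a roster of known guidance genes and up to 6 members per direction with the largest difference, a mean of at least 5 CPM and no overlap. Members, lists and tests were chosen with earlier results of these data known. A gene of the oligodendrocyte marker list is not reported here.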

Additional observations from a re-analysis of the deposited data

Results flagged for a closer look

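The change from E15.5 to adult was compared between Cre-positive diaphragm and spinal cord in the interaction test of limma (Benjamini-Hochberg adjusted over all genes). Given here are the 6 called members with the largest positive difference among those with a mean of at least 5 CPM at E15.5 or in the adult in both tissues. The list was cut at 6, so it does not hold every such member that passed. The change in diaphragm minus that in spinal cord was 2.56 for Sema6d, 2.35 for Nrp1, 2.19 for Sema6c, 2.16 for Plxna2, 2.13 for Nrp2 and 1.60 for Sema3c on the log2 scale. All 6 fell in spinal cord. Without the intermediate library of each group Sema3c had adjusted p = 0.056, and the other 5 stayed under the threshold.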

How the results depend on the processing

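Only named members called in the main test were followed, many of them picked for large differences, so a gained call could not be counted. Of their values under the alternatives, 3848 kept the direction and the call, 137 lost the call and none reversed. Counts of members called in the spinal cord and tissue comparisons stayed within 1.5 times of the main count under each alternative run. Without the intermediate library of each group the count went from 6 to 0 (Cre effect at E15.5), 7 to 0 (P0.5), 1 to 0 (adult), 38 to 14 (diaphragm, adult against E15.5) and 39 to 21 (tissue difference, adult against E15.5); this leaves 2 libraries a group, and the cause was not tested. For the Cre effect at E15.5 the count was 3 with a pseudocount of 0.1 and 3 with edgeR, at P0.5 13 with RLE scaling and 2 with only the compared groups, at P10 1 with no filter, and in the adult 2 with no filter, 5 with edgeR and 0 with only the compared groups. Leaving out 1 library gave 3 to 6 at E15.5, 6 to 12 at P0.5, 0 at P10 and 0 to 2 in the adult for the Cre effect, 30 to 38 for the diaphragm and 35 to 42 for the tissue difference. Pairing by replicate number was not seen: deviations of same-numbered libraries from their group means correlated between -0.0959 and 0.0759. With 3 libraries a group, 1 of them close to a sum of the other 2, this cannot exclude pairing. The labels do not say whether same-numbered libraries share animals. With the replicate as a block 58 members were called for adult against E15.5 spinal cord and 40 for the tissue difference. The block ended the calls of Slit2 (spinal cord, adult against P10, adjusted p = 0.051), Plxna2 (diaphragm, adult against E15.5, 0.051) and Robo1 (Cre effect at E15.5, 0.052) among the named members. In the shallowest library 3 reads were 0.0471 CPM and in the deepest 0.028 CPM, so members near or under these levels rest on few reads.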
